A study of Rattus norvegicus with 4 samples.

Results

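Placental growth factor (Pgf) and 8 related genes of the vascular growth factor systems were followed in rat tendon fibroblasts given the releasate of one of a pair of plasma products. The set comprised the ligands Pgf, Vegfa, Vegfb and Vegfc, their receptors Flt1 and Kdr, the angiopoietins Angpt1 and Angpt2, and the angiopoietin receptor Tek; the last 3 belong to a neighbouring ligand and receptor system, not to the VEGF family itself. A member was taken where a probe set carried its symbol and no other in the platform's annotation, which gave 7 probe sets, 1 per gene, among 14824 single-symbol probe sets. Vegfa and Kdr had no such probe set and were not analysed here. The set was chosen by the PRP and PPP levels of these arrays, which were known when it was put together, so the members' differences are given as a description, with no test.

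Cells from the tail tendons of Lewis rats, retired breeders, were held in gels of type I collagen. Both groups spent 2 days in medium with 10% fetal bovine serum and then received serum-free medium with 10% clot releasate for 24 hours. That releasate came from PRP in one group and from PPP in the other, abbreviations commonly used for platelet-rich and platelet-poor plasma. Each group had 2 arrays, and there were no untreated arrays, so a difference cannot be assigned to either product alone. Nothing in the labels says who or what donated the plasma. The labels also do not say whether replicates came from separate animals or cultures, and the spread between arrays may therefore be technical.

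The VEGF ligands are secreted dimers that act through receptor tyrosine kinases. Pgf and Vegfb bind Flt1 (VEGF receptor 1), Vegfa binds Flt1 and Kdr (VEGF receptor 2), and Vegfc, after proteolytic processing, binds Flt4 and Kdr and drives the growth of lymphatic vessels. Neuropilins serve as co-receptors. Angpt1 activates Tek and steadies vessels, while Angpt2 can act on Tek as an agonist or an antagonist. These receptors are best known from endothelium, and tendon is a poorly vascularised tissue into which vessels grow during repair.

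The promoters of Pgf and Vegfc are shown because these were the measured VEGF ligands with the largest differences, in opposite directions. Each run is the 250 bases before the gene's start on the gene's own strand, from RefSeq (GRCr8), with Pgf at chr6:110557748-110557997 (minus strand) and Vegfc at chr16:44560888-44561137 (minus strand). Capitals mark a match to the core of the metal response element, TGCNCNC.
Pgf: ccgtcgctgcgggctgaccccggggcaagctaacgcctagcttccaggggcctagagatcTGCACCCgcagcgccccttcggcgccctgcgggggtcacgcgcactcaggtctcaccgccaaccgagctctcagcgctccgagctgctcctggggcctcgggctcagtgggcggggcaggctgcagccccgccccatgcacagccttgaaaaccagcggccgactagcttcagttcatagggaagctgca
Vegfc: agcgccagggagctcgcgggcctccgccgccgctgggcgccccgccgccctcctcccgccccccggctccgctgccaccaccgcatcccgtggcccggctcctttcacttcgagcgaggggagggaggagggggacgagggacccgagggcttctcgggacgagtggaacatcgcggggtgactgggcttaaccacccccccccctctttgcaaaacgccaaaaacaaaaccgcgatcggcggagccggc
On both strands, 3 motifs were searched: ACGTG, the core of the hypoxia response element, TGCNCNC, and TGANTCA, the AP-1 site. The Pgf window held 1 match to TGCNCNC, from 190 to 184 bases before the start, and no ACGTG or TGANTCA. No match to any of them was found in the Vegfc window. Of 33469 promoter entries in the table, 43.4% held TGCNCNC, 16.6% ACGTG and 6.34% TGANTCA, so a single TGCNCNC is a common feature of windows of this length. Entries were present for 6 of the 9 genes (all except Angpt1, Angpt2 and Tek); none of them held ACGTG or TGANTCA, and Kdr and 1 of 2 Vegfa entries also held 1 TGCNCNC. The GC content was 69.2% for Pgf, 72.4% for Vegfc, 73.2% for Vegfb and 73.2% for Flt1. It was lower for the 2 Vegfa entries (60.4% and 56%) and for Kdr (61.6%). The median over all entries was 51.2%.

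Pgf differed from the other members by the size of its difference. On the log2 scale of RMA, which summarises the probes of a probe set after background correction, its level was 5.55 and 5.44 on the PPP arrays and 3.37 and 3.48 on the PRP arrays. Both PRP arrays were far below both PPP arrays, with a gap of 1.96 between the nearest ones. The mean of the PPP arrays was 5.50 ± 0.07 and that of the PRP arrays 3.43 ± 0.08 (SD, n = 2 each). That is a log2 difference of -2.07 (SE 0.11), or 4.19-fold lower with PRP. SE is, here and below, the moderated standard error of limma's linear model over the 14824 single-symbol probe sets. Only 6 of the 14824 probe sets had a more negative difference. In bulk RNA, fewer cells expressing a gene and less RNA per cell cannot be told apart. A low array value cannot be told from background either, and the fold is uncertain to the extent that the PRP level is one.

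**Figure D1:**
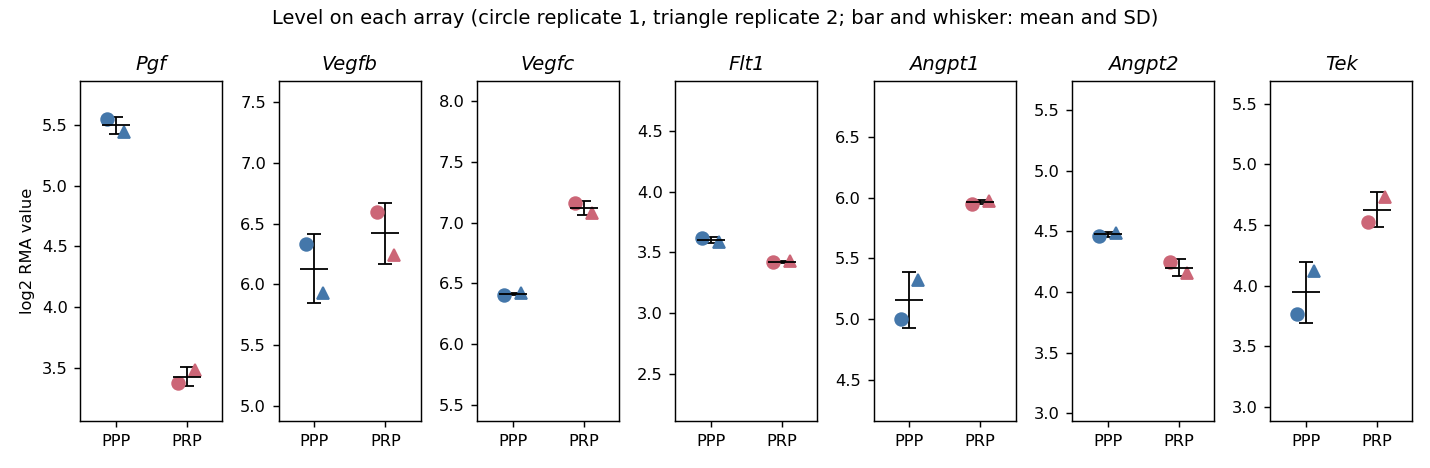
Log2 level of each measured member (y axis, log2 RMA value; every panel spans the same number of log2 units) on the 2 PPP arrays (blue) and the 2 PRP arrays (red), with the group mean and SD in black. Pgf drops from 5.50 to 3.43, while Vegfc, Angpt1 and Tek sit higher with PRP and only the arrays of Vegfb overlap.

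Of the other measured ligands of VEGF receptors, Vegfc went the other way from Pgf, and the direction of Vegfb was not resolved. Vegfc, the lymphatic growth factor, was at 6.40 and 6.42 with PPP and at 7.16 and 7.08 with PRP. Its groups lay apart by more than the distance between arrays of a group, and its mean went from 6.41 ± 0.01 to 7.12 ± 0.06 (SD, n = 2 each). That is a log2 difference of 0.71 (SE 0.11), or 1.64-fold higher with PRP. Vegfb, which shares the receptor Flt1 with Pgf, was at 6.33 and 5.93 with PPP and at 6.60 and 6.24 with PRP. Its groups overlapped: replicate 1 was the higher array in each group, and the difference of 0.29 (SE 0.19) was smaller than the distance between its replicates. Dropping 1 PPP array made it 0.49 (replicate 1 dropped) or 0.0888 (replicate 2 dropped), and dropping 1 PRP array made it 0.11 or 0.47 in the same order.

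Flt1, the receptor for Pgf and Vegfb, differed little. It read 3.62 and 3.58 with PPP and 3.42 and 3.43 with PRP, a log2 difference of -0.18 (SE 0.10). The arrays did not overlap, but the fit over the single-symbol probe sets gives this probe set an SE that is large beside the difference. Whether such a level is above background could not be told.

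Of the angiopoietin system, Angpt1 and its receptor Tek were both higher with PRP. Angpt1, the agonist, read 4.998 and 5.32 with PPP and 5.95 and 5.98 with PRP. The PRP arrays were close to each other and above both PPP arrays, and the means were 5.16 ± 0.23 and 5.96 ± 0.02 (SD, n = 2 each). The difference of 0.80 (SE 0.14), 1.75-fold, was the largest positive one among the members. Tek was at 3.77 and 4.12 with PPP and at 4.52 and 4.73 with PRP. The nearest arrays of its groups were 0.40 apart, and the difference of means was 0.68 (SE 0.16), or 1.60-fold. Angpt2, the context-dependent ligand, went the other way by a small amount: 4.46 and 4.49 with PPP against 4.25 and 4.15 with PRP, a difference of -0.27 (SE 0.11).

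Over the 7 members, 4 differences were positive and 3 negative, with a median of 0.29 beside -0.0027 over all 14824 probe sets. The groups did not overlap in 6 of the 7, where 46.4% of all probe sets tested also had groups that did not overlap. Because the set was chosen with this contrast known, nothing is read from that count. Angpt1 and Tek had differences of similar size to that of Vegfc. Compared with Vegfc, Tek had more distance between arrays in both groups, and Angpt1 in the PPP group only.

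**Figure D2:**
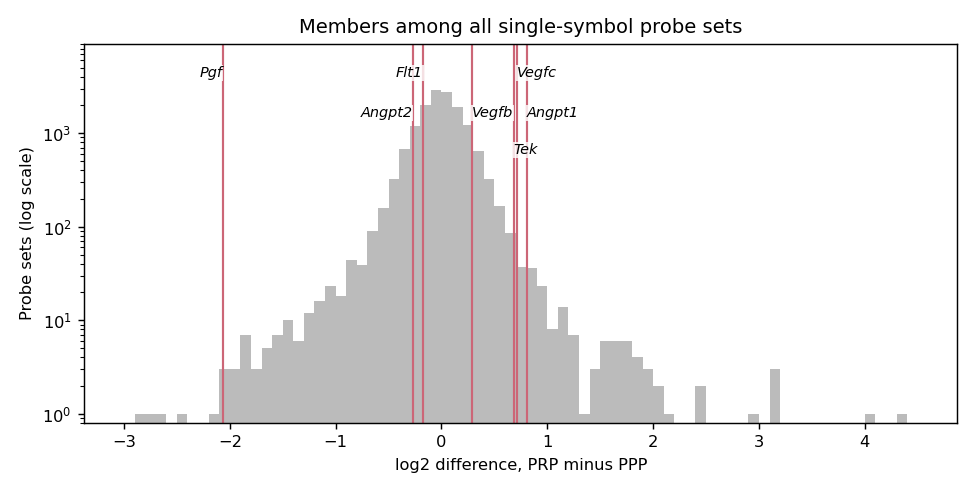
Distribution of the log2 difference, PRP minus PPP (x axis), over the 14824 single-symbol probe sets (y axis, number of probe sets on a log scale), with red lines at the 7 members. Pgf at -2.07 lies in the thin lower tail, Vegfc, Angpt1 and Tek lie between 0.68 and 0.80, and Angpt2, Flt1 and Vegfb lie within the central mass.

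By the pattern over the 4 arrays alone, the 5 probe sets nearest to Pgf were Jag1, Prss23, Tril, Itga11 and Aoc3. The measure was the Euclidean distance between log2 values after each probe set's own mean was subtracted, which was 0.11 for Jag1 and 0.23 for Aoc3. Jag1, a Notch ligand, read 7.33, 7.23, 5.03 and 5.18 on PPP replicates 1 and 2 and PRP replicates 1 and 2. Tril, an accessory protein of Toll-like receptors, read 4.80, 4.70, 2.78 and 2.92. The differences of the 5 ran from -2.17 (Jag1) to -1.90 (Tril). With 4 arrays such a ranking mostly picks probe sets with a difference of like size.

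**Figure D3:**
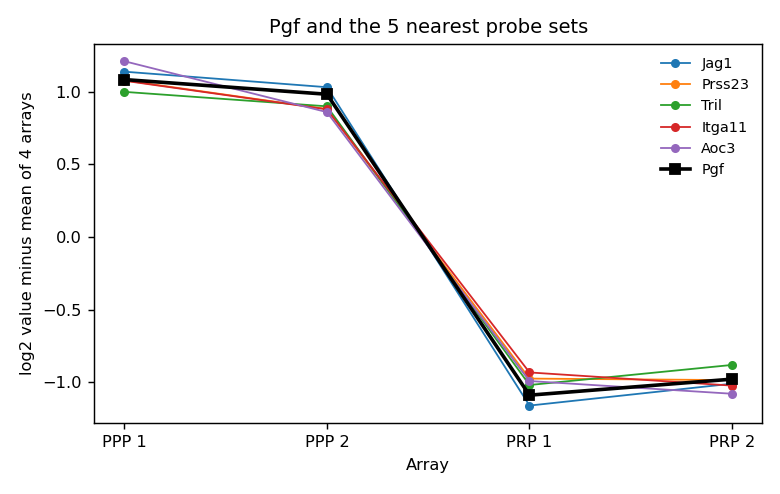
Log2 value minus the mean of the 4 arrays (y axis) for Pgf (black squares) and its 5 nearest probe sets on each array (x axis, PPP replicates 1 and 2, then PRP replicates 1 and 2). All 6 profiles are high on both PPP arrays and low on both PRP arrays, with differences of -2.17 to -1.90 for the 5.

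The genes around the family were read from 5 lists with 100 genes in all, of which 64 were measured. These lists and the marker lists below were chosen with earlier results of these data known. Their counts and adjusted p values are therefore a description. At a Benjamini-Hochberg adjusted p below 0.05 in limma's fit over all single-symbol probe sets, 3 of the 64 rose with PRP, 1 fell and 60 did not pass, where 1.85% of all probe sets passed (0.83% higher and 1.02% lower). Among 4 measured ligands and receptors outside the set, Nrp1 fell and 3 did not pass (median difference 0.03). Nrp1, the neuropilin that serves as co-receptor for Pgf, Vegfa and Vegfb, went from 6.53 and 6.37 with PPP to 5.46 and 5.50 with PRP. Its log2 difference was -0.97 (SE 0.11, adjusted p 0.0166 by limma). Dropping any 1 array ended the call (adjusted p 0.0708 to 0.141), although the difference stayed between -1.05 and -0.89. Flt4, the main receptor of Vegfc, was at 3.05 and 3.00 with PPP and at 3.42 and 3.72 with PRP, 0.54 apart at an adjusted p of 0.143 by limma and at levels that may be background. Angpt4, a further angiopoietin, had a difference of 0.03, and its sign turned under cyclic loess scaling (-0.040) and without PPP replicate 2 (-0.0033).

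Ccbe1, the secreted protein that the protease Adamts3 needs to activate Vegfc, rose with PRP. It was at 6.02 and 5.90 with PPP and at 7.16 and 7.13 with PRP. The log2 difference was 1.19 (SE 0.11), or 2.28-fold (adjusted p 0.00802 by limma), and with 1 array left out the adjusted p was 0.0618 to 0.0723. Ccbe1 was the only one of 10 measured genes of VEGF processing and binding to pass, and their median was -0.01. Adamts1, a metalloprotease that binds Vegfa, had a difference of 0.65 and Ccn2, a matrix-associated protein that binds Vegfa, one of -0.52, with adjusted p of 0.0703 and 0.113 by limma. Adamts3 itself had no single-symbol probe set.

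Angptl4, an angiopoietin-like inhibitor of lipoprotein lipase, rose from 5.78 and 5.53 with PPP to 7.21 and 7.10 with PRP. That was a log2 difference of 1.51 (SE 0.13), or 2.84-fold (adjusted p 0.00718 by limma). Its call held when PPP replicate 1 or PRP replicate 2 was dropped and ended when PPP replicate 2 or PRP replicate 1 was (adjusted p at most 0.0567). The other 4 measured angiopoietin-like genes did not pass, and the median of the 5 was -0.11 (0.039 without PRP replicate 2). Angptl7 came nearest, with a difference of -0.85 (adjusted p 0.136 by limma) that was -0.54 without PRP replicate 2. Angptl8, a partner of other angiopoietin-like proteins in blood lipid control, had a difference of 0.11.

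Among 12 measured regulators of VEGF family transcription, of 15 listed, Arnt2 rose and 11 did not pass (median difference 0.02). Hif1a, Egln1 and Ets1 were listed but had no single-symbol probe set, so nothing can be said of them here. Arnt2, a dimerisation partner of hypoxia-inducible factors known mainly from neurons, went from 5.65 and 5.55 to 6.42 and 6.27, a log2 difference of 0.75 (SE 0.12, adjusted p 0.0427 by limma). It did not pass with any 1 array left out (adjusted p 0.141 to 0.261) or after cyclic loess scaling (0.0518), nor in the fit over all 36685 probe sets (0.236). Egln2 and Egln3, prolyl hydroxylases that mark hypoxia-inducible factors for degradation, had differences of 0.30 and 0.28 and did not pass. That of Egln2 was 0.20 without PPP replicate 1 and that of Egln3 0.16 without PRP replicate 1. Egln3 read 2.29 and 2.18 with PPP and 2.63 and 2.40 with PRP, levels that may be background. Mtf1, the factor that binds the metal response element, had a difference of 0.07, from 6.81 ± 0.09 to 6.88 ± 0.02 (SD, n = 2 each).

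Of 33 measured genes of intracellular signalling downstream of VEGF receptors and Tek, 0 were called in limma's fit over the 14824 single-symbol probe sets. An unadjusted p below 0.05 was reached by 9 of them, and by 2411 of the 14824. Differences were positive in 22 and negative in 11, with a median of 0.08. The smallest p values belonged to Pla2g4a, the cytosolic phospholipase that releases arachidonic acid (difference 0.82, adjusted p 0.0559 by limma), and Pxn, the focal adhesion adaptor paxillin (0.68, adjusted p 0.105). Pla2g4a passed in 3 other fits: with an intensity trend, after median centring of the arrays, and with dim probe sets left out.

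**Figure D4:**
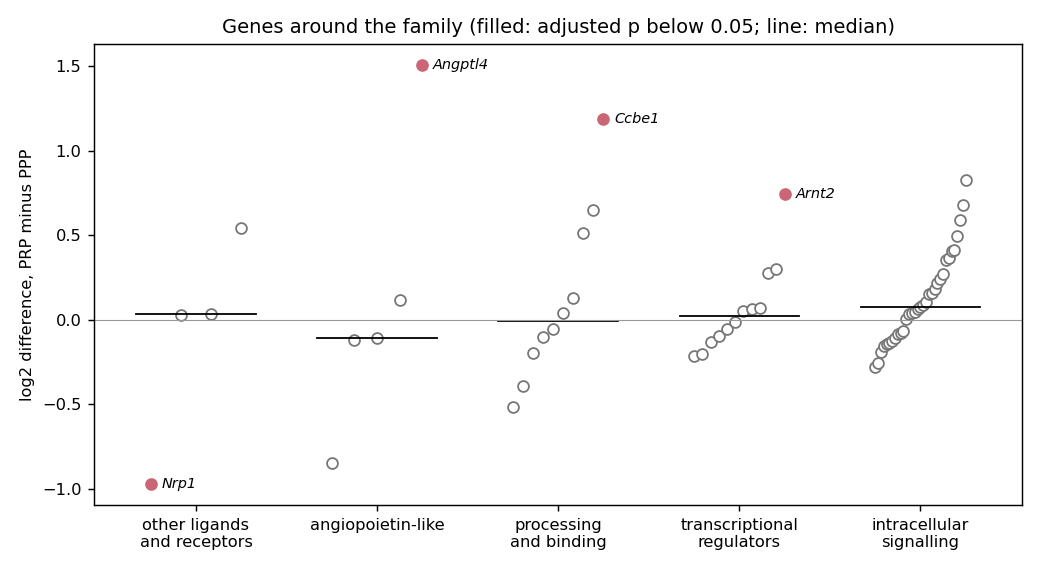
Log2 difference, PRP minus PPP (y axis), of each measured gene of the 5 lists around the family (x axis), with filled points for genes at an adjusted p below 0.05 by limma and a line at the list's median. The 4 filled points are Nrp1 at -0.97, Angptl4 at 1.51, Ccbe1 at 1.19 and Arnt2 at 0.75, while every median lies between -0.11 and 0.08.

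Markers of the cells that usually carry these receptors were set beside the members. Of 12 measured endothelial markers limma called 0. An unadjusted p below 0.05 was reached by 1 of them, and by 2411 of all 14824 single-symbol probe sets. Whether the markers' probe sets were above background could not be told. The sum of the 12 markers' log2 values was 33.9 to 34.5 with PPP and 33.1 to 34.4 with PRP. Cdh5, the cadherin of endothelial junctions, read 2.41 and 2.36 with PPP and 2.30 and 2.49 with PRP. The smallest p was that of Esam, an adhesion molecule of endothelial junctions (difference -0.48, adjusted p 0.226 by limma), whose difference was -0.28 without PPP replicate 1. Of 5 lymphatic markers limma called 0 (1 at an unadjusted p below 0.05). The smallest p was that of Pdpn, which fibroblasts also express (difference 0.51, adjusted p 0.0887), and the sums were 20.5 to 21.4 with PPP and 21.3 to 21.6 with PRP.

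Among pericyte markers, Mcam fell and 5 of 6 measured did not pass, where 1.02% of all probe sets passed as lower. An unadjusted p below 0.05 in limma was reached by 3 of the 6, beside 2411 of all 14824 probe sets. Mcam, an adhesion molecule of pericytes and endothelium, went from 4.86 and 4.87 to 3.67 and 3.52, a log2 difference of -1.27 (SE 0.11, adjusted p 0.00722 by limma), and its call ended when either PPP array or PRP replicate 2 was dropped (adjusted p at most 0.0718). Summed over the 6 markers, log2 values were 27.1 to 27.2 with PPP and 24.6 to 24.7 with PRP. Mcam had the largest share of that fall, and 5 of the 6 differences were negative. The sum moved with Pgf and Nrp1, and its part in their difference was not tested. Kcnj8, a potassium channel subunit of pericytes, had a difference of -0.47 (adjusted p 0.114).

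Of 7 leukocyte markers limma called 0 (2 at an unadjusted p below 0.05, beside 2411 of all 14824 probe sets). Nearest was Tyrobp, a myeloid adaptor, at -0.87 (adjusted p 0.0559 by limma). Cd14, a co-receptor for bacterial lipopolysaccharide, went in the other direction at 0.39 (adjusted p 0.301 by limma). Tyrobp passed in 4 other fits: with an intensity trend, without dim probe sets, after median centring and after cyclic loess. The leukocyte sums were 22.9 to 23.6 with PPP and 22.2 to 22.6 with PRP. Of 6 platelet markers 1 passed, the chemokine Pf4 (difference 1.85, adjusted p 0.00398 by limma), where 0.83% of all probe sets passed as higher. Gp1ba, a platelet glycoprotein, was at 2.23 and 2.05 with PPP and at 1.96 and 2.06 with PRP. The platelet sums were 21.2 to 21.9 with PPP and 22.8 to 23.7 with PRP. The 6 differences were 3 positive and 3 negative, with a median of -0.05. Of 10 tendon fibroblast markers, 2 fell and 8 did not pass, where 1.02% of all probe sets passed as lower. An unadjusted p below 0.05 in limma was reached by 9 of the 10, beside 2411 of all 14824 probe sets. The collagen-binding proteoglycan Fmod fell, with a log2 difference of -2.43 (adjusted p 0.00271 by limma), and so did the tendon membrane protein Tnmd, with -1.36 (adjusted p 0.00861), though the call of Tnmd ended when either PPP array or PRP replicate 2 was dropped (adjusted p at most 0.0742). Col1a1, a chain of type I collagen, was at -0.66 and did not pass (adjusted p 0.0650). Of the 10 differences, 7 were negative and 3 positive, with a median of -0.54. Among the positive ones were Dcn, the proteoglycan decorin, at 0.56 (adjusted p 0.0709 by limma) and Pdgfra, a PDGF receptor of fibroblasts, at 0.55 (adjusted p 0.0713). With an intensity trend 2 of the 10 rose and 6 fell, and after median centring 2 rose and 2 fell. The tendon sums were 82.9 to 83.5 with PPP and 77.9 to 78.0 with PRP. The part of these shifts in the members' values was not tested.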

How the data were processed

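The deposited table held a log2 value for each of 36685 probe sets on 4 Affymetrix arrays, 2 per group. The submitters' processing notes name RMA, oligo and limma, without versions. The genome build is not given in the sources used here. The deposited log2 values have the form of RMA output, background-corrected and with like distributions on every array. A change in total RNA per cell would not show, and no level is compared between probe sets. The platform annotation paired 14824 probe sets with 1 symbol, 829 with several, and 21032 are unnamed here. The groups were compared with lmFit and eBayes of limma 3.58.1 under R 4.3.3 (two-sided, no trend, no filter), with Benjamini-Hochberg adjustment over the 14824 and a threshold of 0.05. The fit had 2 residual and 3.87 prior degrees of freedom; SE is limma's moderated SE. The number of arrays limits the precision.

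Arrays of a group correlated at 0.994 (PPP) and 0.995 (PRP) across probe sets, and arrays of different groups at 0.987 to 0.990. The members and gene lists were chosen with earlier results of these data known. A gene with several probe sets was represented by that with the highest mean. Besides the members, the genes named are those called in each list, the 2 with the smallest p of the rest in each pathway list (1 in each marker list) and the 5 nearest to Pgf; Jag1 and Tril among these, and Mtf1, Cdh5, Cd14, Dcn and Pdgfra, were chosen for comment after their values were seen. Alternatives covered an intensity trend, a robust prior, all probe sets, a filter on dim probe sets, 2 other scalings, a replicate block and each array left out.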

Additional observations from a re-analysis of the deposited data

How the results depend on the processing

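The number of probe sets called depended on the fit: 274 as reported, 808 with an intensity trend, 2 over all 36685 probe sets, 123 with a replicate block, and 56 to 81 with 1 array left out. The count of members at an adjusted p below 0.05 in limma is a description only, since this contrast chose them. Nothing is read from how far it lies from the share of all probe sets. It was 2 of 7 in the fit over single-symbol probe sets, where 1.85% of all these probe sets passed. The count stayed 2 with cyclic loess and a robust prior. It was 3 with an intensity trend, without dim probe sets or after median centring, and 1 with a replicate block. Over all 36685 probe sets it was 0, with 4 members at an unadjusted p below 0.05, beside 3941 of the 36685. Over the pathway lists the 4 calls became 11 with an intensity trend and 2 with a replicate block. With the block, Nrp1 (adjusted p 0.0681 by limma) and Arnt2 (0.0958) no longer passed. In limma's fit over all 36685 probe sets the list calls became 0. There, 17 of the 64 list genes had an unadjusted p below 0.05, as did 3941 of the 36685. The median over the members was 0.0888 to 0.49 with 1 array left out, being the value of Vegfb. No member changed sign under any alternative; Pgf stayed between -2.12 and -2.01. Angpt4, not called, turned to -0.040 under cyclic loess and ran from -0.0033 (without PPP replicate 2) to 0.061 with 1 array left out. The cause of these shifts was not tested. The replicate numbers are not stated to mark a shared animal or day, and the deviations of same-numbered arrays from their group means correlated at 0.0056, so the block is reported here only. Fits with 1 array left out have 1 array in a group, which is assumed to vary like the other group. Signal over background was not available, which limits what can be said of any low level. That covers Flt1, Flt4, Tek and Egln3. It also covers Pgf, Mcam, Tnmd, Tyrobp and Tril with PRP, and Pf4 with PPP.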
